A study of Arabidopsis thaliana with 6 samples.

Results

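*SWEET* genes code for sugar facilitators of cell membranes. Such a protein lets a sugar pass down its concentration gradient without using protons, and many plant cells release glucose, fructose or sucrose to their neighbours in this way. Tissues that are not connected to the phloem by open channels, such as pollen and embryos, depend on sugar that is first released into the cell wall space. There it is either taken up as sucrose by proton symporters or split by cell wall invertases. In Arabidopsis, SWEET1, SWEET4, SWEET5 and SWEET8 are known mainly as transporters of hexoses. SWEET9 and SWEET11 to SWEET15, which belong to clade III of the family, are known as transporters of sucrose.

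The 10 genes described here, *SWEET1* (AT1G21460), *SWEET4* (AT3G28007), *SWEET5* (AT5G62850), *SWEET8* (AT5G40260), *SWEET9* (AT2G39060), *SWEET11* (AT3G48740), *SWEET12* (AT5G23660), *SWEET13* (AT5G50800), *SWEET14* (AT4G25010) and *SWEET15* (AT5G13170), were chosen by locus identifier from the 32678 genes in the files, and all 10 were found. Inflorescence apices that carried flowers no older than stage 12 gave the RNA, which was sequenced from 3 Col-0 wild type samples and 3 samples of *bpcV*, the quintuple mutant *bpc1-2 bpc2 bpc3 bpc4 bpc6*. All plants grew untreated under 16 h of light and 8 h of darkness. The mutated genes code for BASIC PENTACYSTEINE (BPC) proteins, plant transcription factors that bind GA-rich repeats, and the question was which genes are expressed differently when 5 of them are mutated together. No single or lower-order mutant is among the libraries, so a value cannot be assigned to 1 *BPC* gene. The samples of a genotype are described as biological replicates, and how many plants were pooled in each is not given in the sources used here.

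Totals ranged from 16196042 to 21455150 expected counts per library. The first principal component of log2 CPM (counts scaled by library size) held 56.3% of the variance and separated the genotypes, and the second held 20.3%, with *bpcV* replicates 1 and 2 at its opposite ends. Of the mutated genes, *BPC1*, *BPC2* and *BPC6* lay between 0.33 and 2.60 TPM (transcript abundance scaled by length and by library) in the *bpcV* libraries against 21.6 to 53.8 TPM in wild type. *BPC4* was also lower in the mutant, with a log2 fold change of -0.62 and an FDR of 0.00236 (edgeR). *BPC3* RNA was not lower, at 5.91 to 7.30 TPM in *bpcV* and 3.71 to 5.81 TPM in wild type, and whether that RNA is functional was not analysed here. Flower identity genes were detected in every library, and *AP1*, *AG*, *AP3*, *PI* and *SEP3* lay between 46.0 and 297 TPM. *LFY*, of the same list, was low, at 0.98 to 2.38 TPM.

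The members lie on all 5 chromosomes. In the TAIR10.1 assembly *SWEET1* is on chromosome 1 (7511750 to 7513481), *SWEET9* on chromosome 2 (16306491 to 16308362) and *SWEET14* on chromosome 4 (12854385 to 12856541). Chromosome 3 holds *SWEET4* (10408073 to 10409977) and *SWEET11* (18052466 to 18054832). The other 5 are on chromosome 5, *SWEET15* (4181042 to 4183354), *SWEET12* (7971647 to 7973995), *SWEET8* (16089678 to 16091797), *SWEET13* (20665068 to 20667312) and *SWEET5* (25229938 to 25231844). *SWEET8* is on the plus strand and the other members are on the minus strand. Each member has 6 exons and a coding sequence of 720 to 885 bases. *SWEET10*, another clade III gene, lies 7066 bases from *SWEET13*.

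Coding sequences were aligned for all 45 pairs of members. The closest pairs were *SWEET11* with *SWEET12* and *SWEET13* with *SWEET14*, each with 82.6% identical bases. The next closest, *SWEET12* with *SWEET14*, had 70.2%. Expected counts of the 10 members were whole numbers in all 6 libraries, as they are where RSEM divided no read between genes. *SWEET1* overlaps *AT1G21450* on the opposite strand by 52 bases, and the strandedness of the libraries is not given in the sources used here. That neighbour had a mean of 16.8 TPM and a log2 fold change of -0.12 (FDR 0.383, edgeR), so its values did not move with those of *SWEET1*. *SWEET5* overlaps *AT5G62848* on the same strand by 100 bases, and that gene was listed at 0 TPM in every library.

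**Figure D1:**
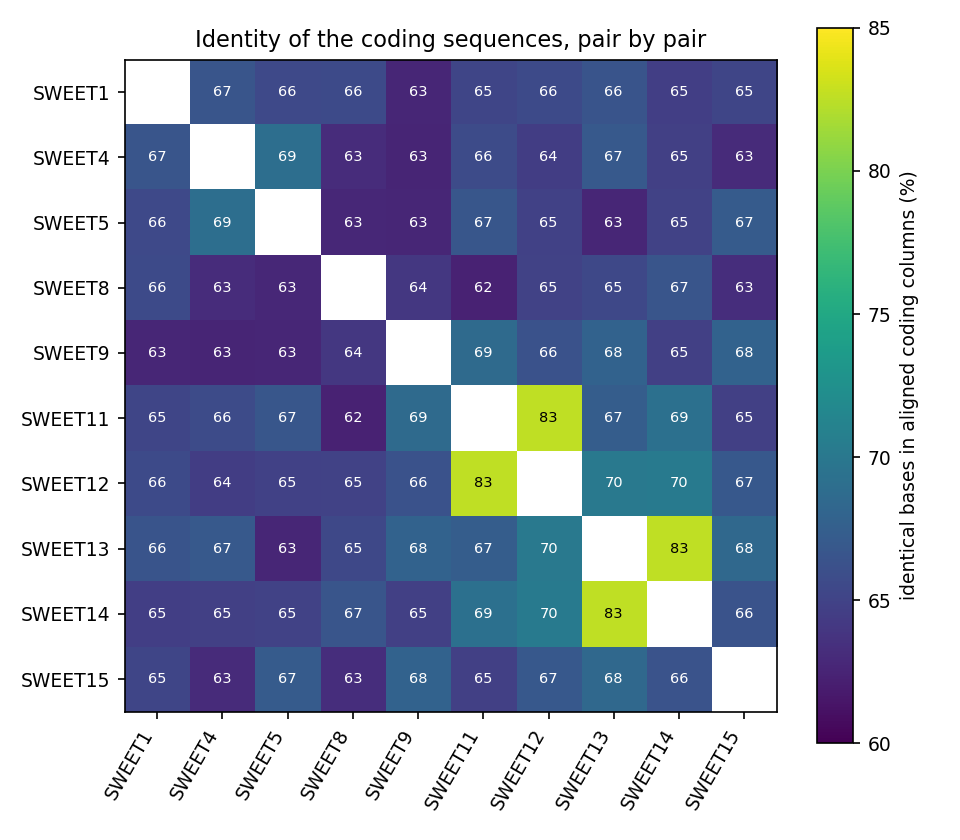
Identity of the coding sequences of the 10 *SWEET* members, pair by pair, as the percentage of identical bases in aligned columns (colour scale). *SWEET11* with *SWEET12* and *SWEET13* with *SWEET14* stand out at 82.6% each, above 70.2% for the next closest pair.

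The 250 bases before the RefSeq gene start were read from TAIR10.1 for every member. The windows of *SWEET5*, *SWEET13* and *SWEET14* are shown because they belong to members that passed the test below or to their closest paralog, and because they hold the repeat that BPC proteins bind or stretches that 2 members share. In the window of *SWEET5* (chr5:25231845-25232094, minus strand) the capitals mark a run of the GA repeat and a CACGTG motif, the G-box that is bound by many plant transcription factors of the bZIP and bHLH families.
SWEET5: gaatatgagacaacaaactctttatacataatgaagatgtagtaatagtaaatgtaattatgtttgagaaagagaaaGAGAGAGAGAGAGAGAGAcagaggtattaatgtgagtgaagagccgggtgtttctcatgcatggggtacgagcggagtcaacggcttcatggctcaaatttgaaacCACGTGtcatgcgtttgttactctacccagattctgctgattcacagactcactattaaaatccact
The GA run covers 18 bases, from 173 to 156 bases before the start, and the G-box lies 67 to 62 bases before it, so the motifs do not overlap. The letters GAGAGA, or TCTCTC on the other strand, occur in 2 of the 10 members' windows (*SWEET5* and *SWEET14*) and in 20.6% of 27443 windows of the same length over all genes. The letters CACGTG, which read the same on both strands, occur in 2 members (*SWEET4* and *SWEET5*) and in 6.49% of all windows. A match is a description of the letters and not of binding.

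In the windows of *SWEET13* (chr5:20667313-20667562, minus strand) and *SWEET14* (chr4:12856542-12856791, minus strand) the capitals mark runs of at least 12 bases that are identical in both.
SWEET13: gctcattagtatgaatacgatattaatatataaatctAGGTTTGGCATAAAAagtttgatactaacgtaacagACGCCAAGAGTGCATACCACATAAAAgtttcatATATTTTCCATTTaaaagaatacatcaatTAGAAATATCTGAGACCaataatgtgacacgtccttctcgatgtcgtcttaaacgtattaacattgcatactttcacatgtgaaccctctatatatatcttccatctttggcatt
SWEET14: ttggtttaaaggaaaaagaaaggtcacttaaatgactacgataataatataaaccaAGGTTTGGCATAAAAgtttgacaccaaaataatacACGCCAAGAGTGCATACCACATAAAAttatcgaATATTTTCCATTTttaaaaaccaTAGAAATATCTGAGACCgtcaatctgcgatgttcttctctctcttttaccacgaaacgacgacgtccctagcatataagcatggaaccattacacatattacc
The longest shared run, ACGCCAAGAGTGCATACCACATAAAA, covers 26 bases and lies 177 to 152 bases before the start of *SWEET13* and 159 to 134 bases before that of *SWEET14*. The other 3 runs cover 17, 15 and 13 bases, and the 4 follow in the same order in both windows. Over all 45 pairs of members the median of the longest shared run was 9 bases, and the longest outside *SWEET13* and *SWEET14* was 12 bases, in *SWEET1* with *SWEET4*. *SWEET11* and *SWEET12*, as similar to each other in coding sequence, shared no run of 12 bases or more before their starts. In *SWEET14* a TCTCTCTC run of 8 bases lies 68 to 61 bases before the start.

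Levels are compared between genes in TPM, which the authors scaled by transcript length. Differences between genotypes were tested on the expected counts with the quasi-likelihood test of edgeR, with the FDR adjusted over the 20813 genes that passed a filter on low counts and a threshold of 0.01. All 10 members passed that filter, with at least 76 counts in each library. A log2 fold change above 0 means a higher level in *bpcV* than in wild type, and those of the members are given with their standard error (SE). Over all genes tested the median log2 fold change was 0.0095.

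Of the 10 members, 3 passed the threshold, against 809 of all genes tested, or 3.89%. *SWEET12* and *SWEET14* rose, where 1.66% of all genes did, and *SWEET5* fell, where 2.23% did. At an FDR of 0.05, 8 members passed, against 12.0% of all genes, and the same number passed the likelihood ratio test of edgeR at 0.01, against 10.7%. DESeq2 also called 8, against 7.76% of the genes to which it gave an adjusted p, and limma on log2(TPM + 1) called 2, against 2.81%. An unadjusted p under 0.05 was found in 9 members and in 28.3% of all genes tested. In 9 of the 10 members the 3 values of *bpcV* did not overlap those of wild type, 5 of them higher and 4 lower, and 35.8% of all genes tested had no overlap. The members had no common direction, and their median log2 fold change was 0.38, with a range from -1.24 to 1.04.

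**Figure D2:**
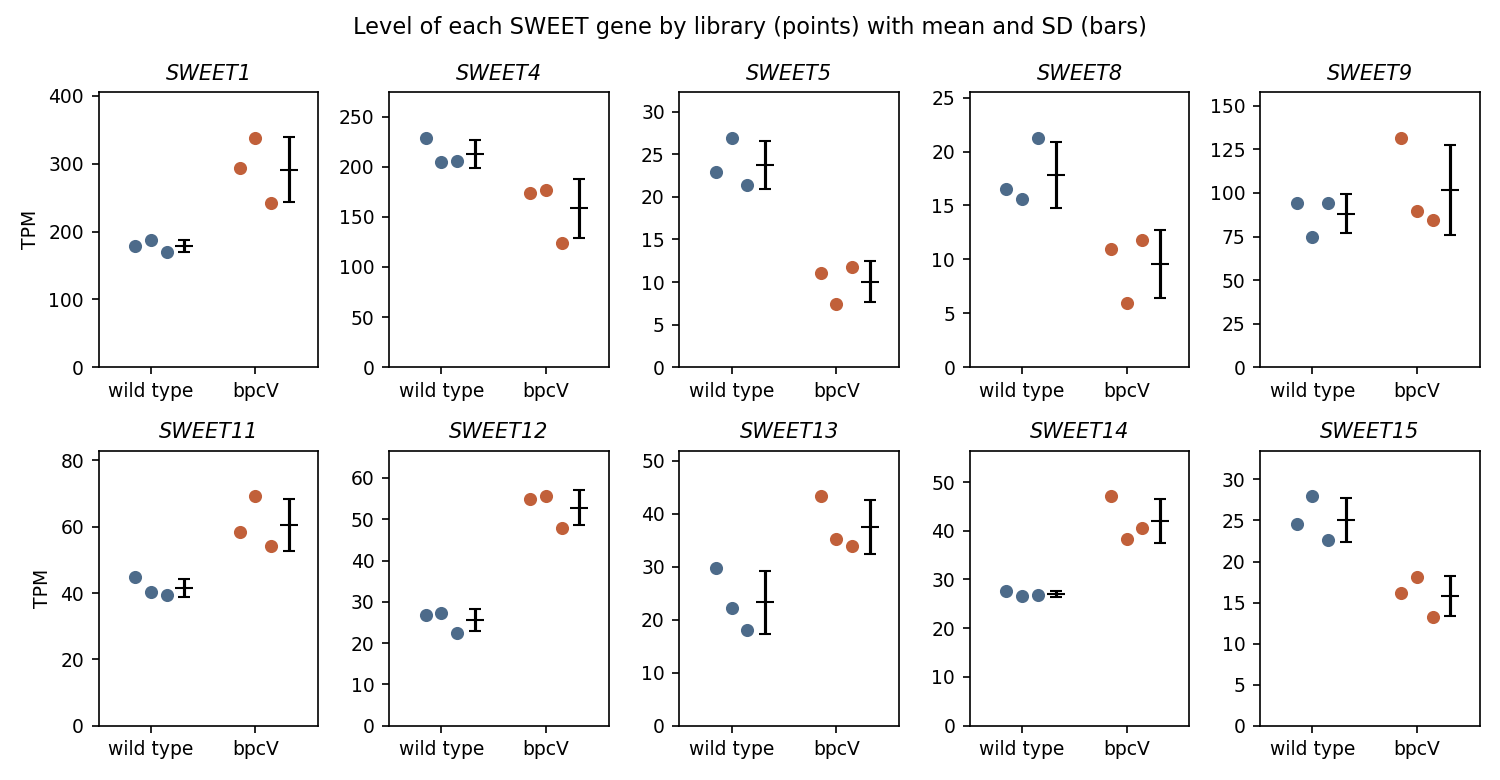
Level of each *SWEET* member in TPM (vertical axis, from 0, a scale for each gene) in the 3 wild type and 3 *bpcV* libraries (points), with the mean and SD of each genotype (bars). *SWEET9* is the only 1 of the 10 in which the genotypes overlap, at 75.0 to 94.5 TPM in wild type and 84.4 to 132 TPM in *bpcV*.

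In wild type the members fell into a high and a low range. *SWEET4* was highest, at 212.9 ± 13.8 TPM (SD, n = 3), followed by *SWEET1* at 178.6 ± 8.86, *SWEET9* at 87.9 ± 11.2 and *SWEET11* at 41.5 ± 2.77. The replicates of each of these 4 did not overlap those of the next gene in the order. *SWEET14*, *SWEET12*, *SWEET15*, *SWEET5*, *SWEET13* and *SWEET8* followed at means of 27.1 to 17.8 TPM, and each overlapped its neighbour in the order. In *bpcV* the order differed. *SWEET1* came first, without overlap with *SWEET4* and *SWEET9*, which overlapped each other. Then came *SWEET11* and *SWEET12*, which overlapped, then *SWEET14* and *SWEET13*, which also overlapped, then *SWEET15*, and last *SWEET5* and *SWEET8*, whose ranges overlapped.

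The summed TPM of the 10 members was 641 to 695 in wild type and 664 to 841 in *bpcV*, so the totals overlapped while the makeup differed. *SWEET4* made up 32.1 ± 0.823% of the sum in wild type and 20.2 ± 1.31% in *bpcV*, and *SWEET1* made up 26.9 ± 1.53% and 37.3 ± 2.89% (SD, n = 3 each). *SWEET4* had the largest share in each wild type library and *SWEET1* in each *bpcV* library. The share of *SWEET12* was 3.84 ± 0.330% in wild type and 6.80 ± 0.360% in *bpcV*, that of *SWEET5* 3.58 ± 0.463% and 1.32 ± 0.445%, and that of *SWEET9* 13.3 ± 1.65% and 13.0 ± 2.46%. These shares add up to 100% within a library, so a higher share of 1 gene lowers the others.

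**Figure D3:**
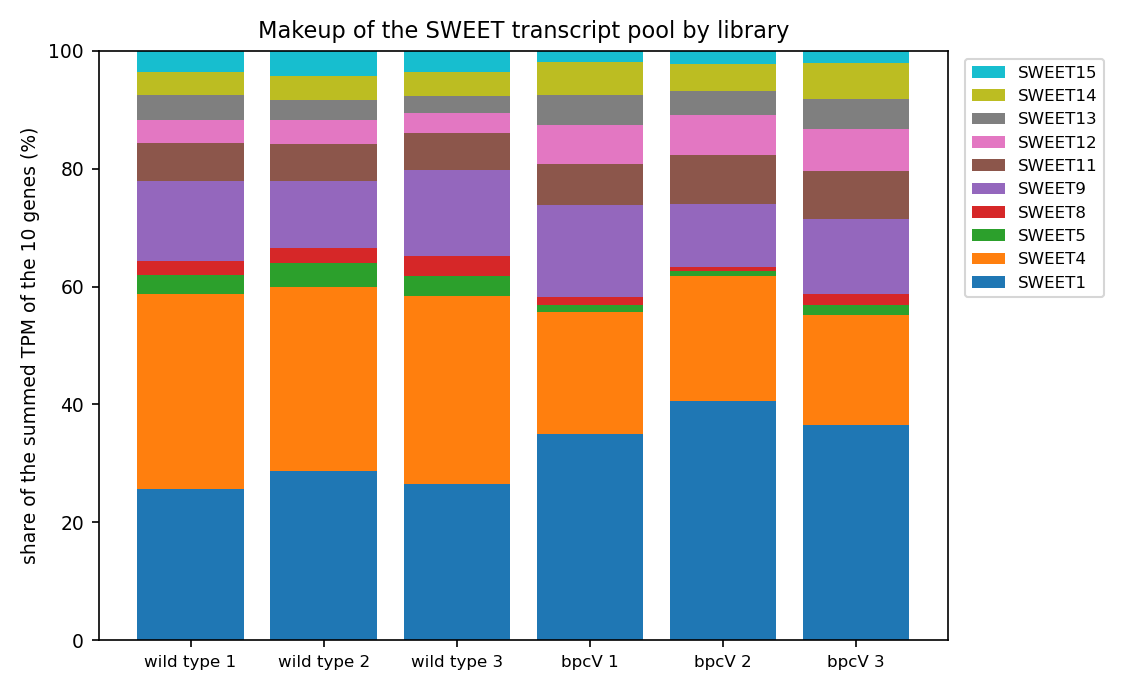
Share of each *SWEET* member in the summed TPM of the 10 genes (vertical axis, %), 1 bar per library. *SWEET4* has the largest share in the 3 wild type libraries (31.3 to 32.9%) and *SWEET1* in the 3 *bpcV* libraries (34.9 to 40.5%).

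*SWEET1* and *SWEET4* are plasma membrane facilitators of glucose and other hexoses and were the most abundant members. *SWEET1* stood at 179, 187 and 169.7 TPM in wild type and at 293.95, 338 and 242 TPM in *bpcV*. Every mutant library was above every wild type library. Its log2 fold change of 0.70 (SE 0.125) had an FDR of 0.0107 and so missed the threshold of 0.01. It passed in 7 of 19 alternative settings, among them without *bpcV* replicate 1 (FDR 0.00876) and by the likelihood ratio test (FDR 5.16e-05). The 7 include a looser FDR of 0.05 on the same fit. Without wild type replicate 1, 2 or 3 the FDR was 0.0514, 0.0464 and 0.0593.

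*SWEET4* pointed the other way. It stood at 229, 205 and 205 TPM in wild type and at 174, 177 and 124 TPM in *bpcV*, with no overlap and with the third mutant library lowest. The log2 fold change was -0.43 (SE 0.135) with an FDR of 0.0782, and it did not pass the threshold in any of the 19 alternative settings (FDR 0.0400 to 0.237).

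*SWEET5* and *SWEET8* act in the anther. *SWEET5*, also named *VEX1*, is known from the vegetative cell of pollen. *SWEET8*, also named *RPG1*, is known from the tapetum, the cell layer that nourishes developing pollen, and from microspores, and it is needed for the pattern of the pollen wall. *SWEET5* fell from 22.9, 26.9 and 21.4 TPM in wild type to 11.03, 7.37 and 11.8 TPM in *bpcV*. Its highest mutant value was lower than its lowest wild type value, and its counts per library, 262 to 326 in wild type and 89 to 160 in *bpcV*, were among the lowest of the members. The log2 fold change was -1.24 (SE 0.187, FDR 0.00550), the largest decrease of the 10 members. The call was lost without wild type replicate 1, 2 or 3 (FDR 0.0243, 0.0297 and 0.0192) or *bpcV* replicate 3 (0.0147). It was also lost with the replicate number as a block (0.0195) and with limma without a filter on low values (0.0184). It held in 13 of 19 alternative settings, which include a looser FDR of 0.05 on the same fit. The log2 fold change stayed between -1.38 and -1.05 in every alternative setting.

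*SWEET8* stood at 16.5, 15.6 and 21.3 TPM in wild type and at 10.98, 5.98 and 11.8 TPM in *bpcV*, again with no overlap. Its log2 fold change was -0.88 (SE 0.241) and did not pass the threshold (FDR 0.0489). In both genes the second mutant library was lowest and the third highest.

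Genes of the tapetum were measured beside these 2. Of 9 tapetum markers, 7 could be tested, and all 7 had log2 fold changes below 0, with a median of -0.68. None passed the quasi-likelihood threshold, 3 had an unadjusted p under 0.05, the likelihood ratio test and DESeq2 each called 3, and limma called none. Over all genes tested, 28.3% had such a p, 10.7% passed the likelihood ratio test and 7.76% passed DESeq2. The summed level of the 9 was 142 to 263 TPM in wild type and 95.4 to 141 TPM in *bpcV*. *AMS*, a regulator of tapetum development, stood at 17.3 to 28.6 TPM in wild type and 6.52 to 13.6 TPM in *bpcV* (log2 fold change -1.24, FDR 0.0358). *DYT1*, an early tapetum gene, was at 0.17 TPM or less in every library, and *DYT1* and *TDF1* had too few counts to test. The 7 late pollen markers summed to 1276 to 1368 TPM in wild type and 945 to 1510 TPM in *bpcV*. Of these 7, 3 had log2 fold changes above 0 and 4 below, with a median of -0.06, none passed the quasi-likelihood, likelihood ratio, DESeq2 or limma threshold, and 2 had an unadjusted p under 0.05, a share near the 28.3% of all genes. The part of tapetum or pollen content in the values of *SWEET5* and *SWEET8* was not tested. In RNA of whole apices, fewer cells of a type and less RNA per cell cannot be told apart.

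*SWEET9* exports sucrose from nectary cells and is required for nectar secretion. It stood at 94.3, 75.0 and 94.5 TPM in wild type and at 132, 89.8 and 84.4 TPM in *bpcV*. The genotypes overlapped, and the high mutant mean of 101.9 ± 25.9 TPM rested on replicate 1. The log2 fold change was 0.21 (SE 0.167, FDR 0.450), and without *bpcV* replicate 1 it was -0.0057. Of 4 markers of nectary and style, 3 had log2 fold changes above 0 and the median was 0.35. None passed the quasi-likelihood or limma threshold. The likelihood ratio test and DESeq2 each called 1 (*MYB21*), beside 10.7% and 7.76% of all genes. An unadjusted p under 0.05 was found in 1, beside 28.3% of all genes. *MYB21*, a regulator of stamen and nectary development, stood at 179.5 to 213 TPM in wild type and 261 to 287 TPM in *bpcV* (log2 fold change 0.52, FDR 0.0114), with no overlap. *JMT*, a jasmonate methyltransferase, had a log2 fold change of 0.54 (FDR 0.219) and the auxin carrier *PIN6* one of 0.18 (FDR 0.444). *CRC*, which is required for nectary formation, stood at 42.9 to 48.2 TPM in wild type and 35.2 to 60.4 TPM in *bpcV*. The summed level of the 4 was 268 to 295 TPM in wild type and 350.1 to 398 TPM in *bpcV*. Within *bpcV*, *SWEET9*, *CRC* and *PIN6* were highest in replicate 1, while *MYB21* and *JMT* were highest in replicate 2. The part of nectary content in the values of *SWEET9* was not tested.

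*SWEET11* and *SWEET12* release sucrose from phloem parenchyma cells for loading into the phloem, and with *SWEET15* they supply developing seeds. *SWEET12* rose from 26.9, 27.2 and 22.4 TPM in wild type to 55.0, 55.5 and 47.9 TPM in *bpcV*. The genotypes were far apart relative to their spread, at 25.5 ± 2.65 and 52.8 ± 4.28 TPM (SD, n = 3). The log2 fold change was 1.04 (SE 0.110, FDR 0.00123), a 2.06-fold higher level, the largest increase of the 10. It passed in 19 of 20 alternative settings and missed the threshold without wild type replicate 1 (FDR 0.0101). The 19 include a looser FDR of 0.05 on the same fit and the summed counts of *SWEET11* and *SWEET12*.

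*SWEET11* stood at 44.7, 40.4 and 39.5 TPM in wild type and at 58.4, 69.2 and 54.1 TPM in *bpcV*, with no overlap. Its log2 fold change of 0.54 (SE 0.109) did not pass the threshold (FDR 0.0171). With the counts of both paralogs summed, the log2 fold change was 0.75 (SE 0.103, FDR 0.00368). Within a library the ratio of *SWEET11* to *SWEET12* in TPM was 1.66, 1.49 and 1.76 in wild type and 1.06, 1.25 and 1.13 in *bpcV*. The ratio was lower in every mutant library, with a difference in log2 ratio of -0.51. The exact two-sided permutation test gave p = 0.1, the smallest value that 3 libraries against 3 allow.

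**Figure D4:**
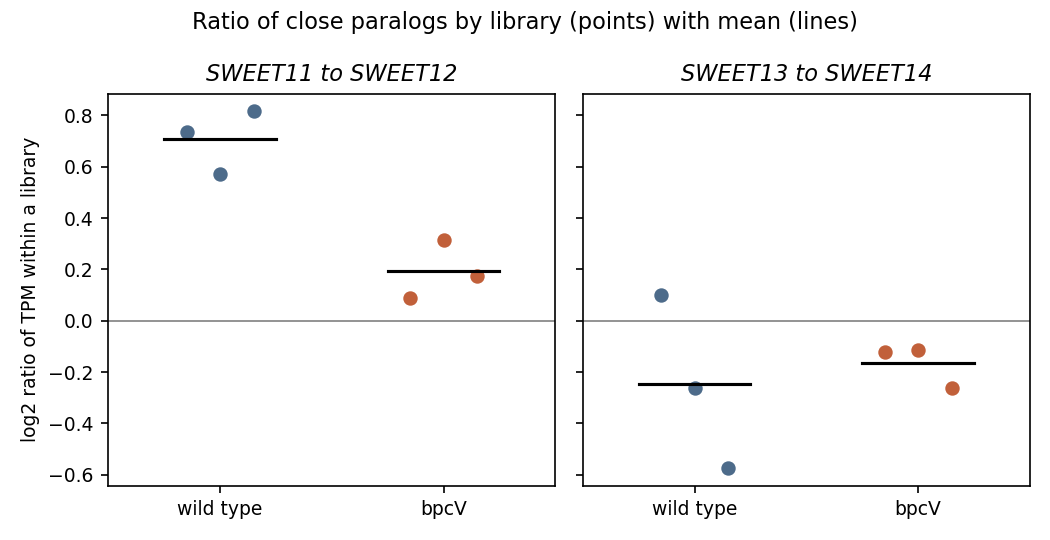
Log2 ratio of TPM within a library (vertical axis) for *SWEET11* to *SWEET12* and *SWEET13* to *SWEET14* in wild type and *bpcV* (points, 3 libraries each), with the mean of each genotype (lines). The ratios of the first pair do not overlap between genotypes (1.49 to 1.76 in wild type and 1.06 to 1.25 in *bpcV* as linear ratios), and those of the second do.

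Phloem markers were set beside this pair. Of 6, 1 passed the threshold, beside 3.89% of all genes. It was *PP2-A1*, which codes for a phloem lectin and rose with a log2 fold change of 0.84 (FDR 0.00344). The likelihood ratio test, DESeq2 and limma each called 1, beside 10.7%, 7.76% and 2.81% of all genes. An unadjusted p under 0.05 was found in 4, beside 28.3%. The median of the 6 was -0.05, and 4 of them had log2 fold changes below 0. The summed level was 277 to 284 TPM in wild type and 323 to 385 TPM in *bpcV*, and *PP2-A1* alone accounted for 93.4 and 167.4 TPM of the mean. *NAKR1* was higher without overlap (log2 fold change 0.50, FDR 0.0559), and the sieve element genes *SEOR1* and *SEOR2* were lower without overlap (-0.27 and -0.24, FDR 0.114 and 0.0892). Of all genes tested, 35.8% had no overlap. *SUC2*, the sucrose proton symporter of companion cells, stood at 118 to 125 TPM in wild type and 104 to 131 TPM in *bpcV*. *PP2-A1* moved with *SWEET12* and *SUC2* did not. The part of phloem content in the values of *SWEET11* and *SWEET12* was not tested.

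*SWEET13* and *SWEET14* carry sucrose and also gibberellin, and anthers of plants that lack both open late. *SWEET14* rose from 27.7, 26.7 and 26.8 TPM in wild type to 47.1, 38.2 and 40.7 TPM in *bpcV*. Its wild type libraries were the most alike of any member, with an SD of 0.568 TPM. The log2 fold change was 0.63 (SE 0.0952, FDR 0.00543), a 1.55-fold higher level. The call was lost without wild type replicate 1, 2 or 3 (FDR 0.0278, 0.0353 and 0.0357) or *bpcV* replicate 3 (0.0210). It was also lost with the replicate number as a block (0.0164), with limma in its 3 settings (0.01004 to 0.0162) and with the counts of *SWEET13* and *SWEET14* summed (0.0124). It passed in 11 of 20 alternative settings, which include a looser FDR of 0.05 on the same fit. The log2 fold change lay between 0.55 and 0.69 in every alternative setting.

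*SWEET13*, also named *RPG2* for its role beside *SWEET8* in pollen wall formation, stood at 29.7, 22.2 and 18.0 TPM in wild type and at 43.3, 35.3 and 33.9 TPM in *bpcV*. The genotypes did not overlap, but wild type replicate 1 was well above the other two. The log2 fold change was 0.68 (SE 0.180) with an FDR of 0.0453, so the estimate was close to that of *SWEET14* with a larger error, and it did not pass. Summing the counts of both gave a log2 fold change of 0.65 (SE 0.121, FDR 0.0124). The ratio of *SWEET13* to *SWEET14* was 1.07, 0.833 and 0.672 in wild type and 0.919, 0.923 and 0.834 in *bpcV*. These ranges overlapped, with a difference in log2 ratio of 0.08 (exact permutation test, p = 0.7), which became -0.08 without wild type replicate 3. *SWEET13* and *SWEET14* were thus higher in *bpcV* than in wild type in every library, while *SWEET5* and *SWEET8*, also genes of the anther, were lower.

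*SWEET15*, also named *SAG29*, is known from senescing leaves and from the seed coat and endosperm. It stood at 24.6, 27.9 and 22.6 TPM in wild type and at 16.1, 18.1 and 13.3 TPM in *bpcV*. It was the only clade III member among the 10 that was lower in the mutant, again without overlap, and its log2 fold change of -0.67 (SE 0.138) did not pass the threshold (FDR 0.0184). Of 5 markers of leaf senescence, 3 had log2 fold changes above 0 and 2 below. None passed the quasi-likelihood or limma threshold, 2 had an unadjusted p under 0.05, and the same number passed DESeq2 and the likelihood ratio test, beside 28.3%, 7.76% and 10.7% of all genes. *NAC092*, a regulator of senescence, had a log2 fold change of -0.76 (FDR 0.0242) and *SAG13* one of -1.10 (FDR 0.0356). *SAG12*, *PPH* and *NYE1* lay the other way, at 0.28, 0.18 and 0.099 (FDR 0.767, 0.536 and 0.642). The summed level of the 5 was 262 to 488 TPM in wild type and 291.1 to 596 TPM in *bpcV*. *SAG12* alone ranged from 62.9 to 248 TPM in wild type. Seed storage genes summed to 0.41 TPM or less in every library, and 2 of the 5, *CRU2* and *SESA1*, were at 0 in all.

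The other 7 genes of the family were measured in the same libraries. *SWEET6* and *SWEET16* had too few counts to test. All 5 that were tested had log2 fold changes below 0, with a median of -0.81. Of these, 2 passed the threshold of 0.01, where 2.23% of all genes passed it with a lower level in *bpcV*. In 4 the *bpcV* values were lower without overlap, beside 17.6% of all genes. All 5 had an unadjusted p under 0.05, beside 28.3%. *SWEET2*, a glucose facilitator of the vacuole membrane, fell from 12.2 ± 1.49 to 6.53 ± 0.520 TPM (SD, n = 3), with a log2 fold change of -0.91 (SE 0.127, FDR 0.00407, edgeR). *SWEET17*, a fructose facilitator of the same membrane, fell from 33.4 ± 3.90 to 18.5 ± 3.26 TPM, with a log2 fold change of -0.86 (SE 0.138, FDR 0.00691, edgeR). *SWEET10*, the most abundant of these genes and the neighbour of *SWEET13*, stood at 38.3 ± 4.35 TPM in wild type and 30.7 ± 1.03 TPM in *bpcV* (log2 fold change -0.32, FDR 0.0666, edgeR). The neighbours *SWEET10* and *SWEET13* thus had estimates of opposite sign. Of all 15 *SWEET* genes tested, those with estimates above 0 were *SWEET1*, *SWEET9* and *SWEET11* to *SWEET14*.

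**Figure D5:**
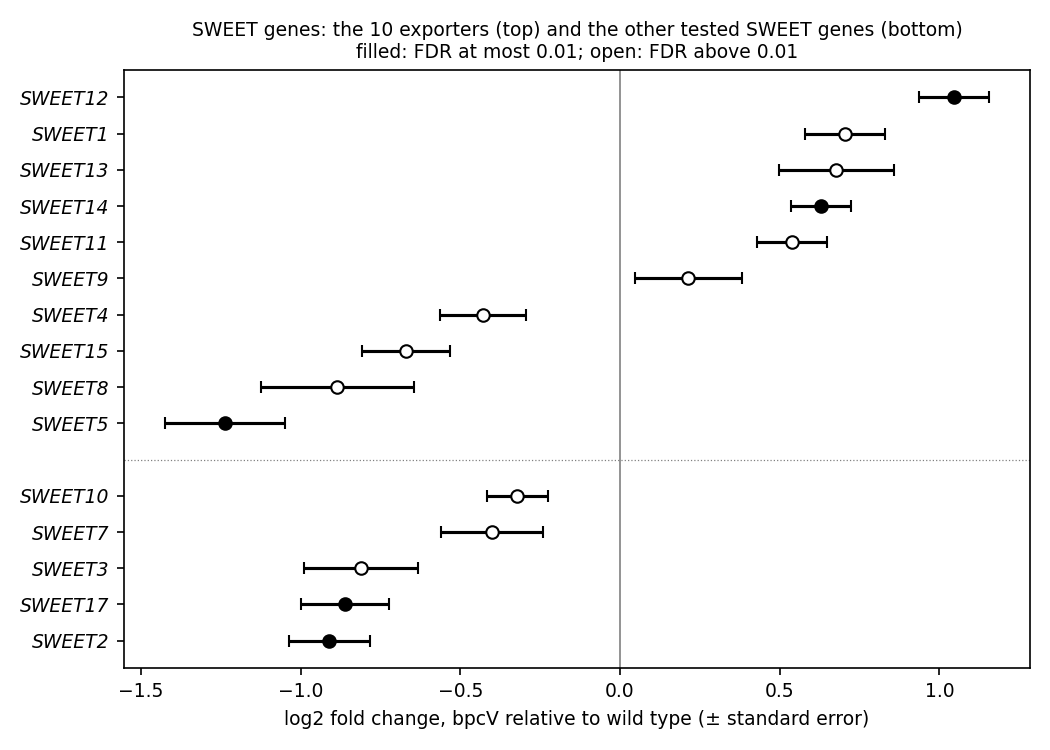
Log2 fold change of *bpcV* relative to wild type (horizontal axis, with standard error) for the 10 *SWEET* members and, below the dotted line, the other 5 *SWEET* genes tested. Filled points have an FDR of 0.01 or less: *SWEET12* (1.04), *SWEET14* (0.63), *SWEET5* (-1.24), *SWEET17* (-0.86) and *SWEET2* (-0.91).

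Sugar released by SWEET proteins is used or made by a small set of enzymes and symporters, and 4 lists of the genes for these were examined. None of their genes passed the threshold of 0.01, which 3.89% of all genes passed, so few calls would be found in lists of this size at that share. Of the cell wall invertases, which split released sucrose, 5 of 6 were tested. None passed the quasi-likelihood test of edgeR, its likelihood ratio test, DESeq2 or limma, and 2 had an unadjusted p under 0.05, which 28.3% of all genes had. The most abundant, *CWINV4*, known for its role in nectar secretion, stood at 45.5 ± 4.47 TPM in wild type and 54.8 ± 10.07 TPM in *bpcV* (log2 fold change 0.26, FDR 0.246, edgeR). Of 6 sucrose synthases, none passed the quasi-likelihood test or limma, 3 had an unadjusted p under 0.05, the likelihood ratio test called 3 and DESeq2 called 2, beside 28.3%, 10.7% and 7.76% of all genes. *SUS1*, the most abundant, stood at 154.7 ± 10.7 and 233.8 ± 43.9 TPM (log2 fold change 0.59, FDR 0.0277, edgeR). *SUS3* and *SUS4*, chosen after their values were seen, lay the other way without overlap. Of all genes tested, 17.6% were lower in *bpcV* without overlap. *SUS3* stood at 13.1 and 7.47 TPM (log2 fold change -0.82, FDR 0.0201, edgeR) and *SUS4* at 0.673 and 0.287 TPM (log2 fold change -1.22, FDR 0.0414, edgeR).

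Of 4 sucrose phosphate synthases, which make sucrose, none passed any of the same 4 tests and 1 had an unadjusted p under 0.05, beside 28.3% of all genes. *SPS1F*, the most abundant, stood at 95.0 ± 5.02 and 123.1 ± 22.4 TPM (log2 fold change 0.36, FDR 0.122, edgeR). Of 6 sucrose proton symporters, none passed the quasi-likelihood test, DESeq2 or limma, 3 had an unadjusted p under 0.05, and the likelihood ratio test called 1, beside 28.3% and 10.7% of all genes. The most abundant of them was *SUC2*, with a log2 fold change of -0.04 (FDR 0.845, edgeR). *SUC1*, *SUC4* and *SUC5*, chosen after their values were seen, were higher in every mutant library than in any wild type library, beside 18.2% of all genes tested. Their log2 fold changes were 0.24, 0.24 and 0.77 (FDR 0.125, 0.151 and 0.0392, edgeR). At an FDR of 0.05, 3 of 6 sucrose synthases and 1 of 6 symporters passed, and none of the other 2 lists, beside 12.0% of all genes. The median log2 fold changes of the 4 lists were 0.14, -0.07, 0.08 and 0.17, beside 0.0095 over all genes.

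For the 3 members past the threshold, the genes with the most similar profile over the 6 libraries were found among 18757 genes, by the root mean square difference of log2 CPM centred on each gene's mean. Closest to *SWEET12* were *AT5G26220*, *TPPB*, a trehalose phosphate phosphatase, and *AT1G06090*, at distances of 0.0634, 0.0748 and 0.0883. Those of *SWEET14* were *BGLU18*, a beta-glucosidase, *AT1G16640* and *OPT6*, an oligopeptide transporter, at 0.0337, 0.0348 and 0.0467. Those of *SWEET5* were *AT1G13670*, *AT5G06610* and *AT5G03350*, at 0.123, 0.128 and 0.134. The distances of *SWEET5* were larger than those of *SWEET12* and *SWEET14*. *SWEET5* also had the lower mean log2 CPM, at 3.53 against 5.18 and 5.01. The part of sampling error in these distances was not tested.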

How the data were processed

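RNA of 6 libraries was sequenced with poly-A selection. Reads were mapped by the authors with Bowtie2 (TAIR10 transcriptome). The deposited values are RSEM expected counts per gene, which are not normalized, the TPM, and the effective length in bases. Versions are not given in the sources used here. A deposited table of the whole series, with the authors' fold changes, p-values and FDR, was not used.

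After rounding of the expected counts, genes were kept by filterByExpr at a minimum of 10 counts and a total of 15. In edgeR 4.0.16 (R 4.3.3), TMM factors and a quasi-likelihood fit of genotype alone gave p-values, which were adjusted by Benjamini-Hochberg over all genes. The SE is the absolute log2 fold change divided by the square root of F. Ratios of paralogs were compared with an exact permutation test. Sequences and positions came from the RefSeq annotation of TAIR10.1, which held 31912 of the 32678 identifiers, read with Python 3.11.15 and biopython 1.88. DESeq2 1.42.0 and limma 3.58.1 served as alternatives, limma on log2(TPM + 1) for genes with a mean TPM of at least 1.

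The members and gene lists were chosen with earlier results of these data known. All members are described. Of the other *SWEET*, invertase, sucrose synthase, sucrose phosphate synthase and symporter lists, genes past the threshold and the most abundant gene of each are named. *SUS3*, *SUS4*, *SUC1*, *SUC4* and *SUC5* fall outside that rule and were chosen after their values were seen. The 3 genes most like each member past the threshold are also named (mean log2 CPM of at least 1). Markers are named where a result is set beside them. Counts carry sampling error, so members with fewer counts are less precise.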

Additional observations from a re-analysis of the deposited data

How the results depend on the processing

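The alternatives were DESeq2, the likelihood ratio test of edgeR, no filter on low counts, RLE factors or plain library totals in place of TMM, unrounded counts, the replicate number as a block, an FDR of 0.05, limma on log2 TPM with 2 pseudocounts or no filter, and each library left out in turn. The count of genes called, 809, became 1782 with DESeq2, 2233 with the likelihood ratio test, 2506 at an FDR of 0.05, 532 with limma on log2(TPM + 0.1), 353 with limma without a filter, and 167 to 1249 with 1 library left out. The members called higher, 2 in number, became 5 with DESeq2, the likelihood ratio test or an FDR of 0.05 (*SWEET1*, *SWEET11*, *SWEET12*, *SWEET13* and *SWEET14*), 4 with plain library totals (without *SWEET13*), 1 with limma in all 3 settings (*SWEET12*), and 0 to 3 with 1 library left out. The 1 member called lower became 3 with DESeq2, the likelihood ratio test or an FDR of 0.05 (*SWEET5*, *SWEET8* and *SWEET15*), 0 with limma without a filter, and 0 to 1 with 1 library left out. Without wild type replicate 1 the quasi-likelihood test called no member, and 8 had an unadjusted p under 0.05.

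With the replicate block 408 genes passed, with 1 member higher (*SWEET12*) and 0 lower (FDR 0.0164 for *SWEET14* and 0.0195 for *SWEET5*). The deviations of same-numbered libraries from their genotype mean had correlations of -0.02, -0.03 and 0.21. Those of differently numbered libraries ranged from -0.17 to 0.16. Whether same-numbered libraries were handled together is not given in the sources used here, and so few correlations cannot decide it. *SWEET9* reversed when *bpcV* replicate 1 was left out, and its log2 fold change ranged from -0.0057 to 0.33 with 1 library left out. The difference in log2 ratio of *SWEET13* to *SWEET14* ranged from -0.084 to 0.25 with 1 library left out and was below 0 without wild type replicate 3. The cause was not tested. The other 9 members kept their direction in every setting. In *SWEET11* to *SWEET12* the difference in log2 ratio stayed between -0.58 and -0.46. Chosen after seeing the data, the robust quasi-likelihood test called 850 genes and also *SWEET1* (FDR 0.00928), and the newer quasi-likelihood test without the legacy setting called 826 genes and the same 3 members.

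Leaving out a library leaves 2 in 1 genotype and fewer degrees of freedom. An FDR of 0.05 is a looser cut on the main fit, and unrounded counts leave the whole counts of the members as they are. Passes of a member in these settings add no separate support. With 3 libraries against 3, differences of the size of *SWEET4*, *SWEET9* and *SWEET11* had standard errors of 0.109 to 0.167 on the log2 scale.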
